A study of Mus musculus with 4 samples.

Results

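The genes described here encode the transporters and enzymes that carry glucose through glycolysis, the pentose phosphate pathway and the tricarboxylic acid (TCA) cycle. They were 47 genes, chosen by name for their role, and all 47 were found by symbol among the 24346 gene rows of the series. They were grouped by textbook role into 23 genes of glucose uptake, glycolysis and lactate handling, 7 of the pentose phosphate pathway and 14 of the TCA cycle. The 3 genes of pyruvate dehydrogenase and its kinase, which link glycolysis to the cycle, were kept apart, a choice made after the values were seen. RNA was sequenced from regulatory T (Treg) cells, the Foxp3-expressing CD4+ T cells that restrain immune responses. The dKO group held 2 libraries labelled Tcf1-/-Lef1-/-, from mice with floxed genes for the transcription factors Tcf1 (gene Tcf7) and Lef1 and a Foxp3-Cre, which directs recombination to cells that have turned Foxp3 on. The WT group held 2 libraries from mice that carried the same Foxp3-Cre with wild-type Tcf7 and Lef1. All mice were male and 16 weeks old, and the cells were sorted from spleen as Thy1.2+, CD4+ and positive for the Foxp3-Cre-GFP reporter.

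Glycolysis splits glucose into pyruvate in the cytosol and yields lactate where pyruvate is reduced. The pentose phosphate pathway branches off at glucose 6-phosphate and supplies NADPH and ribose for nucleotides, and the TCA cycle oxidises acetyl-CoA in mitochondria. In T cells glycolysis is known to be raised on activation, while Treg cells are known to lean more on mitochondrial oxidation than conventional effector T cells do.

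Levels are in FPKM, a unit that divides the fragments of a gene by its transcript length and by the size of the library, so that levels can be set beside each other between genes. The libraries are called dKO_0, dKO_1, WT_0 and WT_1, and the values of a group are given with library 0 before library 1. Estimated depths, read from the FPKM that a single fragment gives in genes with 1 annotated transcript, were 18800000 to 24600000 reads. A difference is the dKO mean minus the WT mean of log2(FPKM + 1), which understates the change of low genes. Limma tested it over the 11595 rows that reached 1 FPKM in 2 or more libraries, and a row is called where the Benjamini-Hochberg adjusted p was under 0.05. The labels do not say whether the 2 libraries of a group came from different animals, so the p-values cover the spread of these libraries alone, which may be technical. The targeted genes were lower in dKO without being called by limma. Tcf7 had 247 and 249.6 FPKM in the dKO libraries, against 345 and 309 FPKM in the WT libraries (adjusted p = 0.158). Lef1 had 41.3 and 36.0 FPKM in the dKO libraries, against 59.9 and 66.5 FPKM in the WT libraries (adjusted p = 0.113). A630014C17Rik and Gm26551 overlap Tcf7, and Gm43352 and Gm42449 overlap Lef1. In the authors' deposited table Lef1 was listed as lower in dKO (q = 0.00365) and Tcf7 was not listed (q = 0.153). A gene-level FPKM sums all exons, so these levels do not measure the deletion itself. Of 6 Treg markers, all present, 4 (Foxp3, Il2ra, Ctla4 and Tnfrsf18) had each dKO library above each WT library and 2 (Ikzf2 and Ikzf4) had each dKO library below each WT library, and limma called 0. Of all rows tested, 27.8% lay above in this way and 23.4% below, and 0.345% were called. Foxp3 had 133 and 144 FPKM in the dKO libraries, against 113 and 121 FPKM in the WT libraries (difference 0.24, adjusted p = 0.244). Ikzf4, the marker with the largest difference in size, had 25.2 and 27.6 FPKM in the dKO libraries, against 35.7 and 35.5 FPKM in the WT libraries (difference -0.42, adjusted p = 0.127). Genes of other cells were also present: monocyte and macrophage markers summed to 501 and 489 FPKM in dKO and 582 and 694 FPKM in WT, and 13 of 13 had a negative difference. WT_1 stood apart for the genes described here: it was the lowest library for 27 of the 47, 57.4% against 30.7% of all rows tested. On the opposite strand 18 of the 47 genes have an annotated overlapping gene, and whether the counting used strand is not known here, so their reads may include some of the partner's. Some of the 47, among them Slc2a3 (Gm4482), have an annotated overlapping gene on the same strand, with the same limit.

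All 47 genes passed the filter on low values, the lowest single value being 1.33 FPKM for Eno2. Together they are abundant in these cells. The 23 glycolysis genes summed to 2265 and 2217 FPKM in the dKO libraries, against 2265 and 2011 FPKM in the WT libraries. The 7 pentose phosphate genes summed to 461 and 441 FPKM in dKO, against 412 and 398 FPKM in WT. The 14 TCA genes summed to 756 and 741 FPKM in dKO, against 705 and 660.2 FPKM in WT. The glycolysis sum was thus lowest in WT_1 and close to equal in the other 3 libraries, while each dKO library exceeded each WT library in its pentose phosphate and TCA sums. In bulk RNA of this kind, a different number of cells of a type and a different amount of RNA per cell cannot be told apart.

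**Figure D1:**
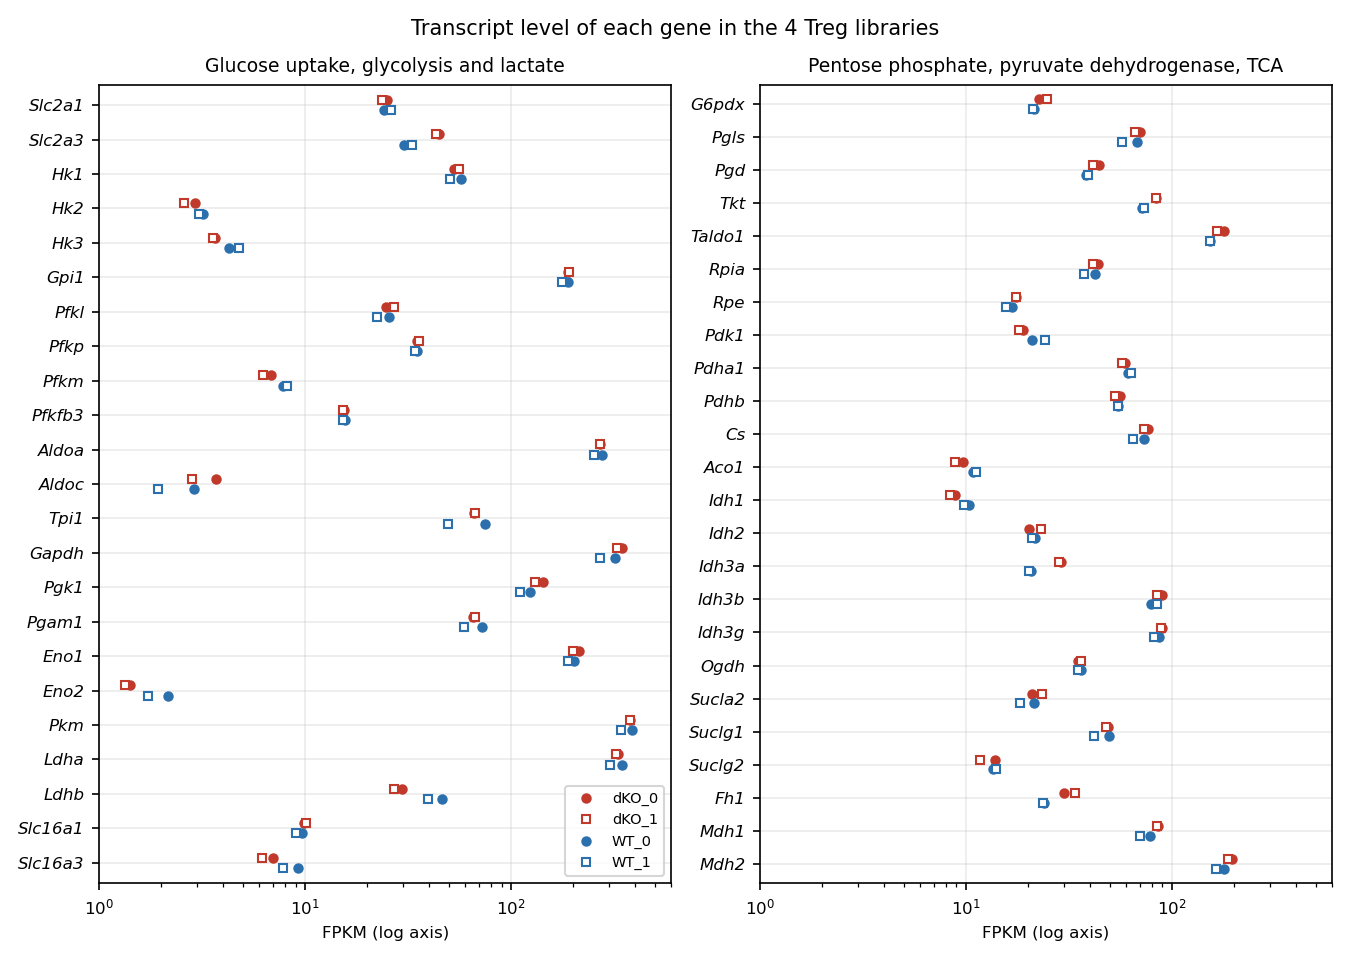
Level of each of the 47 genes in FPKM (x axes, log scale) in the 4 libraries, dKO in red above WT in blue, with filled circles for dKO_0 and WT_0 and open squares for dKO_1 and WT_1. The plot shows levels from 1.33 FPKM (Eno2) to 387 FPKM (Pkm), with dKO and WT symbols clearly apart for Slc2a3, Ldhb, Idh3a and Fh1.

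No gene of these pathways was called in dKO Treg cells, and most differed little between the groups. The largest positive differences were those of Idh3a (0.47), the catalytic subunit gene of the TCA enzyme isocitrate dehydrogenase 3, the glucose transporter gene Slc2a3 (0.46) and the fumarase gene Fh1 (0.41). The largest negative difference was that of Ldhb (-0.58), a lactate dehydrogenase subunit gene. Limma called 0 of the 47 genes, 0 higher and 0 lower, where 0.345% of all rows were called (0.181% with dKO higher, 0.164% with dKO lower). With an unadjusted p under 0.05 as the threshold, 5 of 47 were higher (10.6%, against 9.64% of all rows tested) and 5 were lower (10.6%, against 7.08%). The 5 higher were Slc2a3, Tkt, Idh3a, Fh1 and Mdh1, and the 5 lower were Ldhb, Pfkm, Slc16a3, Pdk1 and Aco1. These counts depended on the libraries used: without WT_0 they were 13 higher and 2 lower, without WT_1 4 higher and 2 lower, and without either dKO library 3 higher and 1 lower. All rows called numbered 40, against 177 without WT_0, 217 without WT_1 and 2 without either dKO library, and of the 47 genes Ldhb was called without WT_1. Both dKO libraries lay above both WT libraries for 17 genes, 36.2% against 27.8% of all rows, and below them for 10 genes, 21.3% against 23.4%. These counts moved with the scaling: 13 above and 12 below under quantile normalization, and 13 above and 11 below under median centring. The shares of all rows are not given for these 2 settings. The share of genes higher at an unadjusted p was thus near that of all rows. In the authors' deposited table, 1 of the 47, Ldhb (q = 0.0392), was listed as lower in dKO and 0 as higher, against 0.604% and 0.76% of all 24346 rows. These shares of the deposited table include the rows that did not pass the filter on low values, unlike the shares above. Ldhb was also the 1 gene of the 47 with a q under 0.05 in the authors' deposited table, as 1.54% of all 24346 rows had, and 4 (Slc2a3, Ldhb, Idh3a and Fh1) had an unadjusted p under 0.05 there. Most differences were small: 32 of 47 were under 0.2 in size, 68.1% against 70.9% of all rows.

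**Figure D2:**
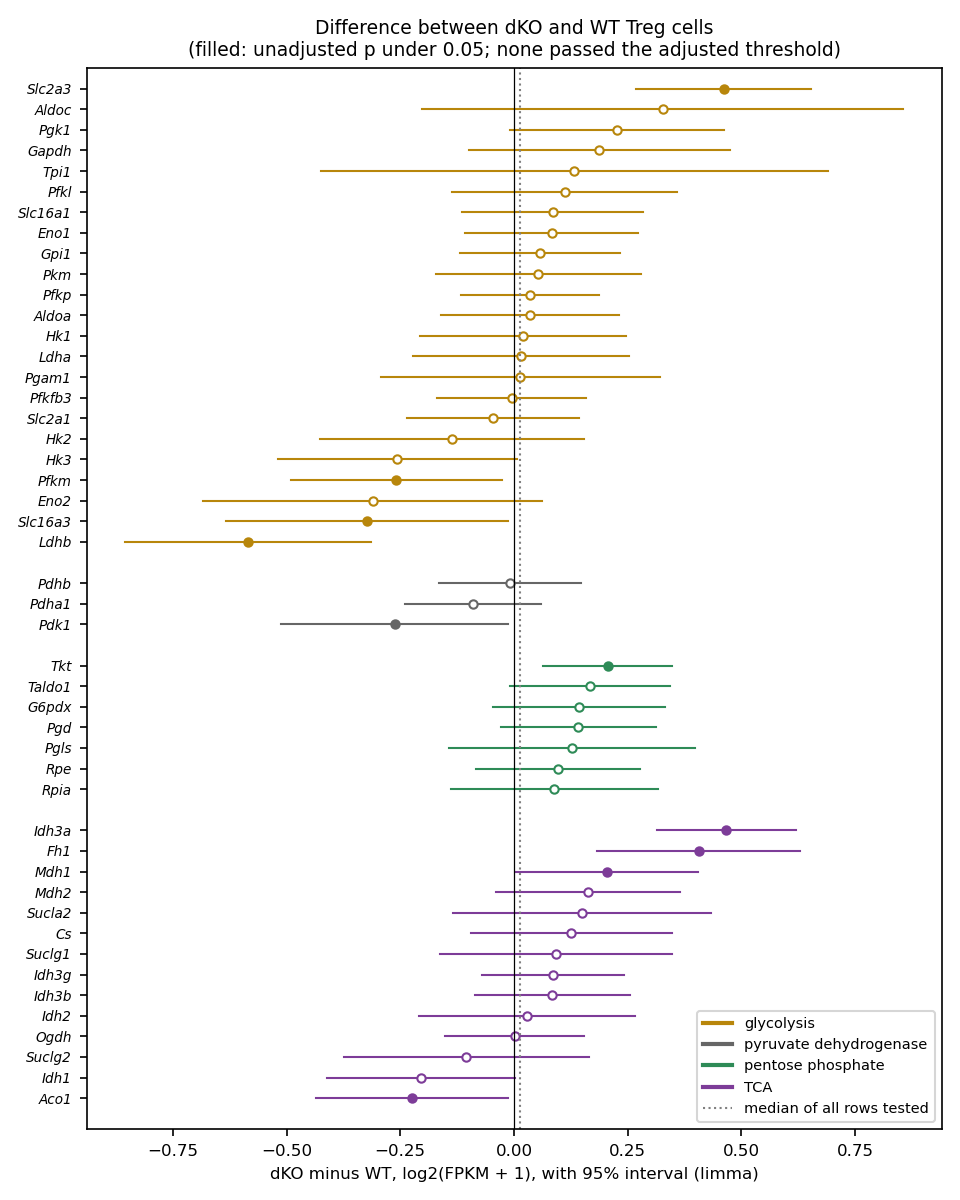
Difference between dKO and WT for each gene on the log2(FPKM + 1) scale (x axis), as a point with its 95% limma interval, by pathway; filled points had an unadjusted p under 0.05. The 7 pentose phosphate points all lie right of 0, between 0.089 and 0.21, while glycolysis points span -0.58 (Ldhb) to 0.46 (Slc2a3).

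The upstream regions of 3 genes are shown: Ldhb as the gene with the largest negative difference, Taldo1 as the 1 promoter holding CTTTGAT and Pgk1 as an example with a pair of ACGTG matches. The letters searched for were ACGTG, the core of hypoxia response elements, CACGTG, an E-box of the Myc family that always contains ACGTG, and CTTTGAT and CTTTGTT, forms of the site that Tcf1 and Lef1 bind. Each region holds the 250 bases before the first RefSeq start listed for the gene (GRCm38.p6), written 5′ to 3′ on the gene's strand, with matches on either strand in capitals. Ldhb (chr6:142507958-142508207, minus strand) held none of the 4, Taldo1 (chr7:141391910-141392159, plus strand) held CTTTGAT beginning at base -14, and Pgk1 (chrX:106186850-106187099, plus strand) held ACGTG beginning at bases -150 and -131, the second on the opposite strand.
Ldhb: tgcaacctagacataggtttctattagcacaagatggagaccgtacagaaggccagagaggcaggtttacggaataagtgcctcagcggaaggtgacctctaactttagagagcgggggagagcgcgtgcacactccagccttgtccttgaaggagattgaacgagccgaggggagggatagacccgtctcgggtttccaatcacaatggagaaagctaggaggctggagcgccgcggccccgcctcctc
Taldo1: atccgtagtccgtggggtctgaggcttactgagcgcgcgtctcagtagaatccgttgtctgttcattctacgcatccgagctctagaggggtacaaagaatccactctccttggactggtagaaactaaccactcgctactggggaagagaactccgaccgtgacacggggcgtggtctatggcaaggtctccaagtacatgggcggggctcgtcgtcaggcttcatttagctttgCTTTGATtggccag
Pgk1: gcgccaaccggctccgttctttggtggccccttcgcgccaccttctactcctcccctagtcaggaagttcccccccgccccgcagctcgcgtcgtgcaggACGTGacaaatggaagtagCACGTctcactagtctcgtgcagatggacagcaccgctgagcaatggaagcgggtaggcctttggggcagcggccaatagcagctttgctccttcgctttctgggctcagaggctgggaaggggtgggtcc
RefSeq promoters were matched for 45 of the 47 genes. Among them ACGTG lay in 10 of 22 glycolysis promoters, 0 of 7 pentose phosphate promoters, 3 of 13 TCA promoters and 1 of 3 pyruvate dehydrogenase promoters, against 22.4% of the 8736 promoters matched to rows tested and 16.6% of all 27025 promoters. CACGTG lay in 3 of the 22 glycolysis promoters (Ldha, Pfkm and Slc16a1) and in 0 of the other 23, against 8.67% of promoters of rows tested and 6.05% of all. CTTTGAT was found in 1 of 45, the Taldo1 promoter, against 2.27% of promoters of rows tested and 3.23% of all, and CTTTGTT in 2 of 45, those of Tkt and Idh3b, against 3.26% and 4.99%. For 39 of the 45 genes, bases just past the RefSeq start were found in an annotated transcript of the gene, and for the rest they were not. The matches describe letters in the window and were not tested for binding.

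Glucose enters T cells through facilitative transporters, of which Slc2a1 (GLUT1) and Slc2a3 (GLUT3) are in the list. Slc2a3 (chromosome 6, 122727809 to 122801640, minus strand, GRCm38, overlapped by Gm4482 on the same strand) had 44.7 and 43.2 FPKM in the dKO libraries, against 30.2 and 33.2 FPKM in the WT libraries. Both dKO values exceeded both WT values, with a difference of 0.46 (95% interval 0.27 to 0.65, limma adjusted p = 0.122), and the gene was not called. Slc2a1 had 25.01 and 23.6 FPKM in the dKO libraries, against 24.3 and 26.0 FPKM in the WT libraries, with overlapping groups and a difference of -0.046 (95% interval -0.23 to 0.14). The ratio of Slc2a1 to Slc2a3 was 0.560 and 0.547 in dKO, against 0.804 and 0.784 in WT, so the dKO ratios lay below the WT ratios. With 2 libraries against 2, an exact two-sided permutation test of such a ratio cannot give a p under 0.333, which is what it gave for this pair.

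Hexokinases trap glucose by phosphorylation, and Hk1 was the main one in these cells. Hk1 had 52.7 and 56.1 FPKM in the dKO libraries, against 57.03 and 50.4 FPKM in the WT libraries, and its groups overlapped. The inducible isozyme gene Hk2 had 2.92 and 2.58 FPKM in the dKO libraries, against 3.18 and 3.05 FPKM in the WT libraries, and the myeloid-enriched Hk3 had 3.67 and 3.58 FPKM in the dKO libraries, against 4.29 and 4.77 FPKM in the WT libraries. For both of these low genes each dKO library lay below each WT library, with differences of -0.14 and -0.26 and adjusted p-values from limma of 0.564 and 0.304. Markers of monocytes and macrophages were lower in dKO as given above, and their part in the Hk3 values was not tested. The Hk2 to Hk1 ratio was 0.0553 and 0.0461 in dKO, against 0.0558 and 0.0605 in WT.

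In the hexose phosphate and cleavage steps, 6 of 8 genes had overlapping groups (75%, against 48.8% of all rows tested), the exceptions being Gpi1 and Pfkm. Gpi1, the isomerase at the branch point with the pentose phosphate pathway, had 190.2 and 191 FPKM in the dKO libraries, against 190.0 and 177 FPKM in the WT libraries (difference 0.058, 95% interval -0.12 to 0.23), so the dKO libraries barely exceeded WT_0. Aldoa, the most abundant gene of these steps and the source of the main muscle-type aldolase, had 270.2 and 271 FPKM in the dKO libraries, against 276 and 252 FPKM in the WT libraries. Its groups overlapped, and the 95% interval of its difference was -0.16 to 0.23. Of the phosphofructokinase genes, which encode the committing step of glycolysis, Pfkp had 34.8 and 35.8 FPKM in the dKO libraries, against 34.8 and 34.0 FPKM in the WT libraries, and the liver-type Pfkl had 24.8 and 26.95 FPKM in the dKO libraries, against 25.5 and 22.4 FPKM in the WT libraries. These 2 main genes overlapped between groups, and the ratio of Pfkp to Pfkl was 1.40 and 1.33 in dKO, against 1.37 and 1.52 in WT. The muscle-type Pfkm, the least abundant of the phosphofructokinase genes, had 6.86 and 6.21 FPKM in the dKO libraries, against 7.84 and 8.17 FPKM in the WT libraries. Both dKO values of Pfkm were below both WT values, with a difference of -0.26 (95% interval -0.49 to -0.027, limma adjusted p = 0.266), and Senp1 overlaps it on the opposite strand. Pfkfb3, whose product makes the phosphofructokinase activator fructose 2,6-bisphosphate, had 15.5 and 15.3 FPKM in the dKO libraries, against 15.5 and 15.3 FPKM in the WT libraries. Its groups overlapped, with a 95% interval of -0.17 to 0.16. Tpi1, triose phosphate isomerase, had 66.1 and 66.9 FPKM in the dKO libraries, against 74.4 and 49.2 FPKM in the WT libraries. Here the WT libraries differed from each other more than either differed from dKO, and the interval of -0.42 to 0.69 was the widest of the 47 genes. The minor aldolase gene Aldoc had 3.68 and 2.84 FPKM in the dKO libraries, against 2.89 and 1.94 FPKM in the WT libraries, also with overlapping groups, and an Aldoc to Aldoa ratio of 0.0136 and 0.0105 in dKO, against 0.0105 and 0.00769 in WT.

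The genes of the steps from triose phosphate to pyruvate, where glycolysis makes its ATP, had the highest summed level of any role in the set. Pkm, pyruvate kinase, had 377 and 379 FPKM in the dKO libraries, against 387 and 344 FPKM in the WT libraries, and its difference was 0.053 (95% interval -0.17 to 0.28). The gene-level value does not separate the alternatively spliced Pkm forms. Gapdh had 346 and 326 FPKM in the dKO libraries, against 321 and 271 FPKM in the WT libraries (difference 0.19, limma adjusted p = 0.445). Pgk1, a phosphoglycerate kinase on the X chromosome whose upstream region is shown above, had 143 and 130.4 FPKM in the dKO libraries, against 123 and 110.3 FPKM in the WT libraries, with a difference of 0.23 (95% interval -0.0088 to 0.46, adjusted p = 0.308). Gapdh and Pgk1 were the only genes of these 6 with both dKO libraries above both WT libraries, and both were lowest in WT_1. The Gapdh difference was 0.063 without WT_1 and 0.31 without WT_0, and the Pgk1 difference was 0.15 without WT_1 and 0.30 without WT_0. Eno1, the main enolase gene, had 213 and 200.1 FPKM in the dKO libraries, against 201 and 189 FPKM in the WT libraries, and Pgam1, a phosphoglycerate mutase gene, had 65.1 and 67.0 FPKM in the dKO libraries, against 72.6 and 58.9 FPKM in the WT libraries. Both overlapped between groups. The neuronal enolase gene Eno2 had 1.41 and 1.33 FPKM in the dKO libraries, against 2.17 and 1.73 FPKM in the WT libraries, near the filter, with dKO below WT (difference -0.31, adjusted p = 0.353) and an Eno2 to Eno1 ratio of 0.00663 and 0.00664 in dKO, against 0.0108 and 0.00917 in WT. Gapdh, Pgk1, Pgam1, Ldha, Aldoa and Eno1 have named pseudogene or retrogene copies in the mouse annotation that could take reads in part. The copies with rows in the table, Aldoart1 and Aldoart2 for Aldoa and Eno1b for Eno1, summed to 0.0483 and 0.125 FPKM in dKO and 0.341 and 0.162 FPKM in WT for Aldoa, and to 0.511 and 0.0954 FPKM in dKO and 0.281 and 0.517 FPKM in WT for Eno1.

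Lactate handling held the largest negative difference of the set. Ldhb, the lactate dehydrogenase subunit H (chromosome 6, 142490249 to 142507957, minus strand), had 29.6 and 26.96 FPKM in the dKO libraries, against 46.2 and 39.7 FPKM in the WT libraries. Both dKO libraries were well below both WT libraries, at 28.3 ± 1.85 FPKM in dKO and 42.9 ± 4.59 FPKM in WT (SD, n = 2 each), a difference of -0.58 (95% interval -0.85 to -0.31). Limma did not call it (adjusted p = 0.132, range over its alternatives 0.0496 to 0.591). It was called without WT_1 (adjusted p = 0.0496, difference -0.69). The authors' deposited table gave Ldhb a log2 fold change of -0.60 and q = 0.0392. Ldha, the subunit M gene that favours lactate formation, had 332 and 324 FPKM in the dKO libraries, against 346 and 304 FPKM in the WT libraries, overlapping groups, and a difference of 0.015 (95% interval -0.22 to 0.25). The Ldha to Ldhb ratio was 11.2 and 12.0 in dKO, against 7.49 and 7.65 in WT, a log2 difference of 0.62 between group means. That difference was the largest in size of the 11 ratios computed, and the dKO and WT ratios did not overlap (exact two-sided permutation p = 0.333, the smallest that 2 against 2 can give). Of the monocarboxylate transporters, which move lactate across the membrane, Slc16a3 (MCT4) had 7.02 and 6.20 FPKM in the dKO libraries, against 9.22 and 7.83 FPKM in the WT libraries, with dKO below WT (difference -0.32, adjusted p = 0.283). Slc16a1 (MCT1) had 9.87 and 10.1 FPKM in the dKO libraries, against 9.67 and 9.09 FPKM in the WT libraries, with dKO slightly above WT (difference 0.085, adjusted p = 0.598). The Slc16a3 to Slc16a1 ratio was 0.711 and 0.611 in dKO, against 0.954 and 0.862 in WT.

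**Figure D3:**
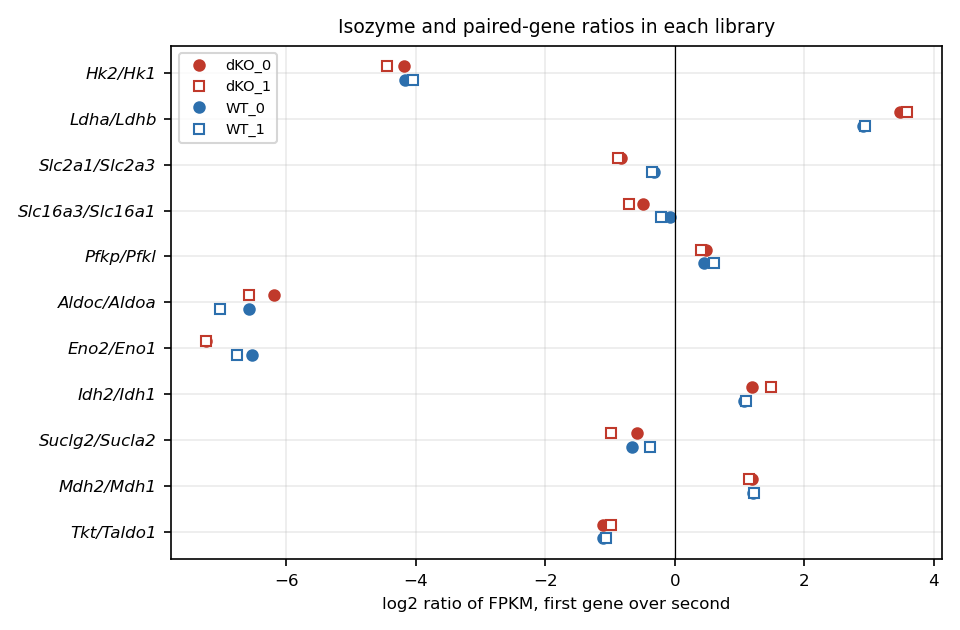
Log2 ratio of the FPKM of 2 genes (x axis, first gene over second) for 11 isozyme or paired genes (y axis), dKO in red above WT in blue. Each dKO symbol lies right of each WT symbol for Ldha/Ldhb and left of them for Slc2a1/Slc2a3, while Pfkp/Pfkl, Suclg2/Sucla2 and Tkt/Taldo1 overlap.

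The pyruvate dehydrogenase complex turns pyruvate into acetyl-CoA, and Pdk1 encodes a kinase that inhibits it. Pdk1 had 19.0 and 18.2 FPKM in the dKO libraries, against 20.9 and 24.2 FPKM in the WT libraries. Both dKO values were below both WT values, with a difference of -0.26 (95% interval -0.51 to -0.014, limma adjusted p = 0.28), and a difference of -0.16 without WT_1. Of the subunits of the E1 enzyme, Pdha1 had 59.2 and 57.6 FPKM in the dKO libraries, against 61.2 and 63.3 FPKM in the WT libraries, and Pdhb had 56.2 and 53.3 FPKM in the dKO libraries, against 55.1 and 55.0 FPKM in the WT libraries. Pdha1 had each dKO library below each WT library, with a difference of -0.090 (adjusted p = 0.472), and Pdhb overlapped between groups.

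All 7 pentose phosphate genes had a positive difference, as did 52.8% of all rows tested, but 0 were called by limma. Only 1, Tkt, had an unadjusted p under 0.05 (14.3%, against 9.64% of all rows with dKO higher). In the oxidative branch, which makes NADPH, G6pdx had 22.7 and 24.8 FPKM in the dKO libraries, against 21.5 and 21.3 FPKM in the WT libraries, and Pgd had 44.2 and 41.3 FPKM in the dKO libraries, against 38.1 and 39.2 FPKM in the WT libraries. The dKO libraries lay above the WT libraries for both, with differences of 0.14 and 0.14 and limma adjusted p-values of 0.387 and 0.355. Pgls, the lactonase gene between them, had 70.1 and 65.9 FPKM in the dKO libraries, against 67.5 and 57.2 FPKM in the WT libraries, with overlapping groups. In the non-oxidative branch, which interconverts sugars of different length, transketolase Tkt (chromosome 14, 30548359 to 30574720, plus strand) had 83.4 and 83.8 FPKM in the dKO libraries, against 71.6 and 73.2 FPKM in the WT libraries. Its libraries within a group were close together, and its difference was 0.21 (95% interval 0.064 to 0.35, limma adjusted p = 0.198). Transaldolase Taldo1, the most abundant gene of the pathway and the 1 whose upstream region held CTTTGAT, had 179.6 and 166 FPKM in the dKO libraries, against 154 and 153 FPKM in the WT libraries, a difference of 0.17 (adjusted p = 0.309). The Tkt to Taldo1 ratio was 0.465 and 0.504 in dKO, against 0.464 and 0.477 in WT, and overlapped between groups. The isomerase Rpia had 43.8 and 41.3 FPKM in the dKO libraries, against 42.6 and 37.6 FPKM in the WT libraries, and the epimerase Rpe had 17.5 and 17.5 FPKM in the dKO libraries, against 16.9 and 15.7 FPKM in the WT libraries. Rpia overlapped between groups and Rpe did not, with differences of 0.089 and 0.097. Of these 7 differences, 5 moved by over 1.5 times with 1 library left out, all of them remaining positive. Without WT_1 that of Rpia was 0.00078, that of Pgls 0.0097 and that of Rpe 0.051. Without WT_0 that of Rpia was 0.18 and that of Pgls 0.25. That of G6pdx was 0.082 without dKO_1 and that of Pgd 0.093 without dKO_0, while that of Tkt was 0.19 to 0.22 with any 1 library left out. In all, 5 of 7 genes had both dKO libraries above both WT libraries, where 27.8% of all rows did.

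Of the 14 TCA genes, 11 had a positive difference (78.6%, against 52.8% of all rows tested). Limma called 0 of the 14, where 0.345% of all rows were called. Among the 14, 3 (Idh3a, Fh1 and Mdh1) had an unadjusted p under 0.05 with dKO above WT (21.4%, against 9.64% of all rows). With dKO below WT there was 1 (Aco1), 7.14% against 7.08% of all rows. The citrate synthase gene Cs, of the cycle's entry step, had 76.7 and 73.4 FPKM in the dKO libraries, against 73.1 and 64.5 FPKM in the WT libraries (difference 0.13, adjusted p = 0.494). That difference was 0.038 without WT_1 and 0.21 without WT_0. Isocitrate dehydrogenase 3, the NAD-dependent enzyme of the mitochondrial cycle, is built from alpha, beta and gamma subunits. The gene of the catalytic alpha subunit, Idh3a (chromosome 9, 54586334 to 54604661, plus strand), had 28.9 and 28.4 FPKM in the dKO libraries, against 20.7 and 20.3 FPKM in the WT libraries. Its replicates were close and its groups well apart, at 28.7 ± 0.388 FPKM in dKO and 20.5 ± 0.288 FPKM in WT (SD, n = 2 each), a difference of 0.47 (95% interval 0.31 to 0.62). This was the smallest adjusted p of the 47 genes (0.0891 by limma, range over its alternatives 0.0397 to 0.563). Idh3a was called with small RNA rows left out (adjusted p = 0.0397), a setting under which 186 rows in all were called in place of 40. With any 1 library left out its difference was 0.45 to 0.48. The beta and gamma subunit genes were more abundant and nearer to equal between groups: Idh3b had 89.2 and 84.9 FPKM in the dKO libraries, against 79.7 and 84.4 FPKM in the WT libraries, and Idh3g had 89.8 and 89.2 FPKM in the dKO libraries, against 86.5 and 82.1 FPKM in the WT libraries. Their differences were 0.084 and 0.085, with dKO above WT in both and adjusted p-values from limma of 0.543 and 0.505. Idh3a thus had the lowest level of the subunit genes in every library.

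The NADP-dependent isocitrate dehydrogenases and the cytosolic aconitase stand beside the cycle. Aco1, a cytosolic aconitase that also acts as an iron-regulatory protein, had 9.73 and 8.90 FPKM in the dKO libraries, against 10.9 and 11.2 FPKM in the WT libraries (difference -0.22, 95% interval -0.44 to -0.014, limma adjusted p = 0.278). The cytosolic Idh1 had 8.85 and 8.34 FPKM in the dKO libraries, against 10.3 and 9.78 FPKM in the WT libraries (difference -0.20, adjusted p = 0.301). For both, each dKO library lay below each WT library, and together with Suclg2 they were the 3 genes of the 14 with a negative difference. The mitochondrial Idh2 had 20.2 and 23.3 FPKM in the dKO libraries, against 21.6 and 20.9 FPKM in the WT libraries, overlapping between groups, and the Idh2 to Idh1 ratio was 2.28 and 2.79 in dKO, against 2.09 and 2.14 in WT.

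In the later steps of the cycle, Fh1 held the largest difference. Fh1, fumarase (chromosome 1, 175600374 to 175625635, minus strand, overlapped by Kmo on the opposite strand), had 29.8 and 33.9 FPKM in the dKO libraries, against 24.0 and 23.6 FPKM in the WT libraries. The groups were apart, at 31.9 ± 2.91 FPKM in dKO and 23.8 ± 0.263 FPKM in WT (SD, n = 2 each), with a difference of 0.41 (95% interval 0.18 to 0.63, limma adjusted p = 0.158). Mdh2, the mitochondrial malate dehydrogenase and the most abundant TCA gene, had 197 and 187 FPKM in the dKO libraries, against 179.6 and 164 FPKM in the WT libraries (difference 0.16, adjusted p = 0.365). The cytosolic Mdh1 had 86.1 and 84.4 FPKM in the dKO libraries, against 78.0 and 70.0 FPKM in the WT libraries (difference 0.20, adjusted p = 0.291), and Wdpcp overlaps it on the opposite strand. For both genes the dKO libraries lay above the WT libraries and WT_1 was lowest, and their ratio, Mdh2 over Mdh1, was 2.29 and 2.22 in dKO, against 2.30 and 2.34 in WT. Without WT_1 the difference was 0.096 for Mdh2 and 0.13 for Mdh1. Ogdh, of the oxoglutarate dehydrogenase complex, had 35.1 and 36.3 FPKM in the dKO libraries, against 36.2 and 35.2 FPKM in the WT libraries, and its difference was under 0.01 with a 95% interval of -0.15 to 0.15. Of the succinyl-CoA ligase genes, the shared alpha subunit Suclg1 had 49.3 and 48.2 FPKM in the dKO libraries, against 49.5 and 42.1 FPKM in the WT libraries, the ADP-forming beta subunit Sucla2 had 20.9 and 23.3 FPKM in the dKO libraries, against 21.4 and 18.3 FPKM in the WT libraries, and the GDP-forming beta subunit Suclg2 had 13.9 and 11.7 FPKM in the dKO libraries, against 13.6 and 14.0 FPKM in the WT libraries. All of these overlapped between groups, and so did the Suclg2 to Sucla2 ratio.

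Set side by side, the pathways had unlike medians, a comparison given with no test. The median difference was 0.14 over the 7 pentose phosphate genes, 0.089 over the 14 TCA genes and 0.036 over the 23 glycolysis genes, against 0.012 over all rows tested. Within glycolysis 15 differences were positive and 8 negative, with 5 genes apart upward and 6 downward, 21.7% and 26.1% of the genes against 27.8% and 23.4% of all rows. The medians moved with the WT libraries used. Without WT_1 they were 0.14, 0.041 and -0.031 in the same order, and without WT_0 they were 0.17, 0.16 and 0.11. Quantile normalization gave 0.096, 0.038 and -0.028, so the glycolysis median changed sign with both settings. Pentose phosphate had the highest median and glycolysis the lowest in every one of these settings.

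**Figure D4:**
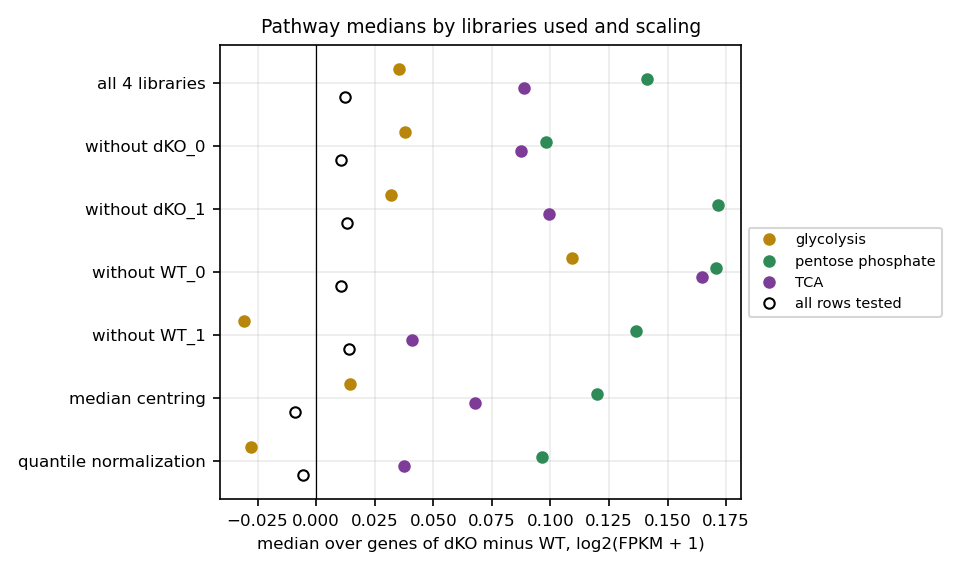
Median over genes of the dKO minus WT difference (x axis, log2(FPKM + 1) scale) for the 3 pathways and for all rows tested, under the libraries used or the scaling (y axis). The pentose phosphate median lies right of 0 at 0.096 to 0.17, while the glycolysis median falls left of 0 without WT_1 and with quantile normalization.

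The genes lowest in WT_1 were 5 of 7 pentose phosphate genes (71.4%), 14 of 23 glycolysis genes (60.9%), 8 of 14 TCA genes (57.1%) and 0 of 3 pyruvate dehydrogenase genes. Median deviations from each gene's mean over the 4 libraries were 0.016 in dKO_0, 0.020 in dKO_1, 0.049 in WT_0 and -0.084 in WT_1 for glycolysis. For the pentose phosphate genes they were 0.10 in dKO_0, 0.029 in dKO_1, -0.065 in WT_0 and -0.087 in WT_1, and for the TCA genes 0.061 in dKO_0, 0.035 in dKO_1, 0.012 in WT_0 and -0.11 in WT_1. For 40 cell cycle genes the median deviations were 0.27 in dKO_0, 0.44 in dKO_1, -0.15 in WT_0 and -0.50 in WT_1, with 39 of the 40 lowest in WT_1. Both dKO libraries also lay above both WT libraries for 39 of these 40 (97.5%, against 27.8% of all rows tested). Their median difference was 0.70, and 0.51 without WT_1. B cell markers, too, were lowest in WT_1 for 9 of 9 tested, with a sum of 129 and 196 FPKM in dKO and 131 and 48.0 FPKM in WT. Neutrophil markers summed to 76.4 and 123 FPKM in dKO and 394 and 96.1 FPKM in WT, highest in WT_0. No marker of these lists with a row in the table was at 0 in all libraries, and the part of cycling cells or of other cell types in the metabolic values was not tested.

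**Figure D5:**
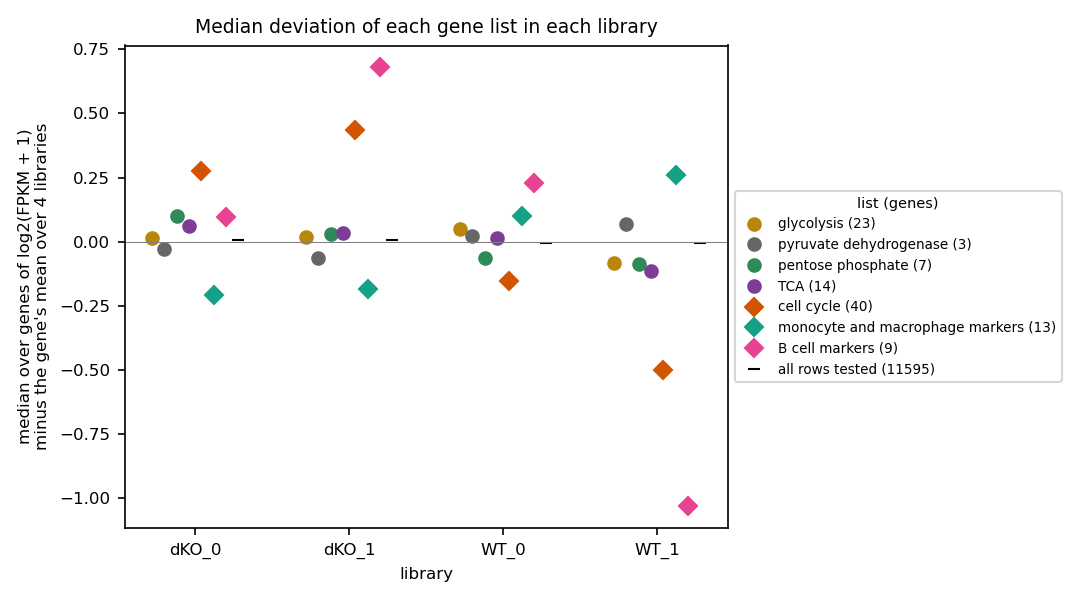
Median over the genes of a list of log2(FPKM + 1) minus the gene's mean over 4 libraries (y axis) in each library (x axis); circles are metabolic lists, diamonds cell cycle genes and markers of other cells, dashes all rows tested. The glycolysis, pentose phosphate and TCA medians lie between -0.11 and 0.10, a narrow band beside the cell cycle genes (-0.50 to 0.44).

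Other genes of the same pathways were also not called. Of 78 such genes with a row in the table (further glycolysis, pyruvate entry, pentose phosphate and TCA enzymes and known regulators), 63 passed the filter, and limma called 0 of them. At an unadjusted p under 0.05, 4 were higher (6.35%, against 9.64% of all rows) and 3 were lower (4.76%, against 7.08%). The median difference was 0.010 over all 63, which pools unlike lists. It was 0.14 over 4 pentose phosphate genes, 0.067 over 11 pyruvate entry genes and 0.037 over 12 TCA genes. Over 15 glycolysis genes it was -0.032, and over 21 regulators -0.0052, with no test of these medians. The largest differences in each direction among those with an unadjusted p under 0.05 are given here. Pgm1, a phosphoglucomutase gene, had 14.2 and 13.7 FPKM in the dKO libraries, against 10.9 and 11.8 FPKM in the WT libraries (difference 0.28, limma adjusted p = 0.212). Sdhb, an iron-sulfur subunit of succinate dehydrogenase, the enzyme just before fumarase, had 109 and 106 FPKM in the dKO libraries, against 92.2 and 88.3 FPKM in the WT libraries (difference 0.25, adjusted p = 0.18). For both, each dKO library exceeded each WT library. Foxo1, a transcription factor of quiescent T cells, had 51.5 and 50.3 FPKM in the dKO libraries, against 59.1 and 66.6 FPKM in the WT libraries (difference -0.30, adjusted p = 0.208). Rptor, the mTORC1 subunit Raptor, had 8.82 and 9.12 FPKM in the dKO libraries, against 10.3 and 11.3 FPKM in the WT libraries (difference -0.24, adjusted p = 0.266), and for both each dKO library lay below each WT library.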

How the data were processed

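RNA-seq libraries of sorted splenic Treg cells, 2 dKO and 2 WT, were grouped by sample title. Per the submitters' processing notes, the tools were TopHat2 2.1.0 and Cuffdiff 2.2.1, with FastQC, on the mm10 build. Neither annotation, strand setting nor library scaling is given in the sources used. The authors deposited FPKM per library and per group, log2 fold changes, and p-values and q-values, per the file headers. Column suffixes (0 and 1) were tied to groups, not to titled replicates. As FPKM is no count, count models were not used, and log2(FPKM + 1) was fitted with limma 3.58.1 in R 4.3.3 (unpaired, intensity trend, 2 residual and 2.31 prior degrees of freedom), after testing the script on simulated data. Alternatives changed the pseudocount (0.1), filter, scaling, trend, small RNA rows and libraries used. Coordinates are from GENCODE M21 (GRCm38); sequences are from RefSeq (GRCm38.p6). Members, lists and tests were chosen with earlier results of these data known. Genes given in each library were those with an unadjusted p under 0.05, the largest differences per pathway, the most abundant per role and isozyme pairs, extended after the values were seen to all members.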

Additional observations from a re-analysis of the deposited data

How the results depend on the processing

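No paired analysis was possible because the library columns carry no replicate number of the sample titles. Over 11 alternatives, 32 of the 47 genes kept the sign of their difference, including all 10 with an unadjusted p under 0.05. The 15 that did not keep it had main differences of at most 0.13 in size. Under quantile normalization the differences were -0.028 for Hk1, -0.016 for Gpi1, -0.0079 for Pfkp, -0.028 for Aldoa, -0.039 for Pgam1, -0.042 for Ldha and -0.041 for Ogdh. Under median centring they were -0.0013 for Hk1, -0.0073 for Pgam1, -0.0059 for Ldha and -0.020 for Ogdh. With 1 library left out, differences ran from -0.095 to 0.0022 for Slc2a1, -0.067 to 0.11 for Hk1, -0.014 to 0.0030 for Pfkfb3, -0.031 to 0.10 for Aldoa, -0.16 to 0.43 for Tpi1, -0.13 to 0.16 for Pgam1, -0.032 to 0.14 for Pkm, -0.079 to 0.11 for Ldha, -0.046 to 0.031 for Pdhb, -0.067 to 0.13 for Idh2, -0.021 to 0.023 for Ogdh, -0.022 to 0.21 for Suclg1 and -0.22 to 0.0072 for Suclg2.

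The rows called in all were 40, and 16 with no filter on low values, 186 with small RNA rows left out and 2 to 217 with 1 library left out (217 without WT_1, 177 without WT_0, 2 without dKO_0 or dKO_1). Members called were 0, and 1 (Idh3a) with small RNA rows left out and 0 to 1 with 1 library left out (Ldhb without WT_1). Members higher at an unadjusted p under 0.05 were 5, and 3 under quantile normalization and 3 to 13 with 1 library left out (13 without WT_0). With small RNA rows left out 7 were higher. Those lower were 5, and 2 with no filter, 6 with the filter at 5 FPKM and 7 under median centring or with no intensity trend. Members with groups apart upward were 17, and 17 to 31 with 1 library left out, and downward 10, and 12 to 18, where 1 library makes a group. Under quantile normalization 13 were apart upward and 12 downward, and under median centring 13 and 11. The glycolysis median was -0.028 under quantile normalization and ran from -0.031 to 0.11 with 1 library left out, the TCA median from 0.041 to 0.16 and the pentose phosphate median from 0.098 to 0.17. The 3 pyruvate dehydrogenase genes, all with a negative difference, were kept apart from glycolysis and TCA after the values were seen. With them counted with the TCA genes, an alternative also chosen after seeing the data, the TCA median was 0.084. The cause of these shifts was not tested. Fits without a library leave 1 library in a group, which is assumed to vary like the other group. Depths are estimates from the FPKM steps.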
